A study of Mus musculus with 12 samples.

Results

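The 8 troponin genes Tnni1, Tnni2, Tnni3, Tnnt1, Tnnt2, Tnnt3, Tnnc1 and Tnnc2 were taken by symbol from RNA-seq tables of C2C12 cells, an immortalized mouse myoblast line that fuses into contracting myotubes when serum is withdrawn. All 8 were among the 16288 genes listed in at least 1 of 12 libraries, and all 8 passed the filter on low counts. The 6 groups of 2 biological duplicates, A and B, crossed 3 stages with 2 treatments. Cells were proliferating in 10% fetal bovine serum (GM), or had been switched at near confluence to 2% horse serum with 2 ug/ml insulin for 24 h (DM 24h) or 48 h (DM 48h). Each stage received the solvent DMSO or 50 uM PFI-3, a small molecule that binds the bromodomains of BRM, BRG1 and PB1, subunits of SWI/SNF chromatin remodellers. Treatment started 12 h before harvest in GM and 12 h before induction in DM, and was renewed every 24 h. All groups come from 1 cell line with no genetic change, and 1 dose was used. The comparison of PFI-3 with DMSO asks which genes depend on those bromodomains as myoblasts differentiate.

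Troponin is the calcium switch of the sarcomere. Troponin C binds calcium, troponin I holds actin and myosin apart at rest, and troponin T ties both to tropomyosin along the thin filament. Each subunit has separate genes for slow and fast skeletal fibres, and troponin I and T have a cardiac gene as well. The slow skeletal and cardiac forms of troponin C come from 1 gene, Tnnc1. Embryonic skeletal muscle and cultured myotubes are known to make cardiac troponin T transiently and to mix slow and fast forms.

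The genes lie in linked pairs of troponin I and troponin T. In mm10 coordinates Tnni1 (NCBI Gene 21952, chr1:135783033-135810989) and Tnnt2 (21956, chr1:135836315-135852268) were 25325 bases apart. Tnnt1 (21955, chr7:4504569-4515975) and Tnni3 (21954, chr7:4518305-4522718) were 2329 bases apart with no protein-coding gene between them, and Tnni2 (21953, chr7:142441816-142444410) and Tnnt3 (21957, chr7:142498771-142516213) were 54360 bases apart. Between Tnni1 and Tnnt2 lay 1 protein-coding gene, and between Tnni2 and Tnnt3 also 1. The troponin C genes stood alone, Tnnc1 (21924) at chr14:31208312-31211729 and Tnnc2 (21925) at chr2:164777161-164779734.

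Library totals of expected counts ran from 12576374 to 13658352, so depth differed little between groups. The GM duplicates differed more than the DM duplicates: across genes averaging 50 counts or more, the log2 difference between A and B had an SD of 0.333 and 0.316 in GM and of 0.141 to 0.160 in DM. Counts alone give a chi-square over degrees of freedom of about 1, against 18.3 and 13.6 in GM and 1.73 to 2.09 in DM. The labels call the libraries biological duplicates without saying how cultures were separated, so p-values measure the spread between these libraries. Each gene's spread was estimated over all 6 groups together, so GM p-values also draw on the tighter DM duplicates.

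Proliferating cells held cardiac troponin T and a little slow/cardiac troponin C, and next to none of the other 6 transcripts. Tnnt2, which encodes cardiac troponin T, stood at 56.91 and 46.01 FPKM (a fragment count corrected for transcript length and depth) in the DMSO libraries A and B, from 862 and 701 counts. Tnnc1, slow and cardiac troponin C, stood at 6.59 and 7.24 FPKM, from 56 and 62 counts. Tnnt2 made up 99.2% of the summed troponin T FPKM in these cells. The other 6 genes were between 0 and 0.36 FPKM in the DMSO libraries, and 6 of the 96 member values, all in GM, were not listed and were taken as 0. A count of 0 allows up to 3 counts, or 0.220 to 0.226 CPM (counts scaled to library size) in these libraries, counting error only.

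PFI-3 lowered both detected transcripts in proliferating cells. Tnnt2 was at 15.23 and 14.94 FPKM with PFI-3, below both DMSO libraries, and fell by 1.87 on the log2 scale (SE 0.13, adjusted p = 7.6e-06, edgeR), to 27.3% of the DMSO level. Tnnc1 was at 2.77 and 2.69 FPKM, also below both DMSO libraries, and fell by 1.43 (SE 0.18, adjusted p = 0.000538, edgeR), to 37% of DMSO. Over all 12545 genes tested, 11.6% were called in this comparison at an adjusted p under 0.05, 6.15% as lower and 5.46% as higher. In 24.0% of all genes tested both PFI-3 libraries lay below both DMSO libraries. The remaining call, a rise of Tnni1 (slow skeletal troponin I), rests on 0 and 1 counts with DMSO against 5 and 5 with PFI-3, a ratio of 9.47 with a 95% counting interval of 1.35 to 411 (adjusted p = 0.0428, edgeR). That call was lost under 15 of 23 alternatives, among them the DESeq2 Wald test (adjusted p = 0.172). When only the 4 GM libraries were fitted, Tnnt2 alone stayed called and Tnnc1 reached an adjusted p of 0.187. With A and B as a block in that fit, a choice made after seeing the data, Tnnc1 stayed called. Counts of the other 5 genes were at most 6 in any GM library, and none of them was called.

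Smooth-muscle genes also differed between these libraries. Acta2, Cnn1, Tagln and Smtn, with Myh11 at 0 in every GM library, summed to 4691 CPM in DMSO library A, 1705 in DMSO library B, and 1052 to 1594 with PFI-3, and Acta2 and Cnn1 were called lower with PFI-3. The same list summed to 2636 to 2660 CPM with DMSO against 1437 to 1484 under PFI-3 at DM 24h and to 5098 to 5211 against 3566 to 3617 at DM 48h, with none of its 4 tested genes called there. Acta2 was at 2414 and 2434 CPM with DMSO and 1267 and 1314 with PFI-3 at DM 24h. At DM 48h it was at 4962 and 4858 against 3346 and 3407 CPM. As the spread of a gene is estimated over all groups, the gap between the GM DMSO libraries enters these tests. The GM DMSO libraries differed far less in Tnnt2. Without DMSO library A, the PFI-3 effect was -1.67 for Tnnt2 (adjusted p = 1.16e-06) and -1.46 for Tnnc1 (adjusted p = 0.00222, edgeR), and without DMSO library B it was -2.05 and -1.40.

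Promoter windows show the sequence just upstream of the 2 genes active before induction, next to those of 2 slow-fibre genes with at most 6 counts per library then. Each run is the 250 bases before a RefSeq start site (GRCm38.p6, the patch release of mm10), read 5′ to 3′ on the transcript's strand. Capitals mark E-boxes (CANNTG, the site class of MyoD and myogenin) and the motif CATTCC or its reverse complement GGAATG (MCAT, the site class of TEAD factors).

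Tnnt2, chr1:135836084-135836333, plus strand: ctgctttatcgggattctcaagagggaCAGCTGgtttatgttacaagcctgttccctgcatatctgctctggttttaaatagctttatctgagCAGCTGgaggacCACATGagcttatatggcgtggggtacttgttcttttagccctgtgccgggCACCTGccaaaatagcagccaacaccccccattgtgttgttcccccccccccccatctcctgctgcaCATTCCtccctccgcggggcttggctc

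Tnnc1, chr14:31208062-31208311, plus strand: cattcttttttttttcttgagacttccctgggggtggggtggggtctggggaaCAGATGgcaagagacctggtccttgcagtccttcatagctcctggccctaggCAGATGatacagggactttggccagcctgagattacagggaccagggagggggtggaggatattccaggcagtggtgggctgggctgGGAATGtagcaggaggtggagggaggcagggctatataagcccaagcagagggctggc

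Tnni1, chr1:135799171-135799420, plus strand: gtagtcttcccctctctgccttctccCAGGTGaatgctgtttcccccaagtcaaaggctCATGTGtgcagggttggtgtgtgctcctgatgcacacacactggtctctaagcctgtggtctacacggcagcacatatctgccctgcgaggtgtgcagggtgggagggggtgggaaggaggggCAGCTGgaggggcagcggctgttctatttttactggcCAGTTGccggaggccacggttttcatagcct

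Tnnt1, chr7:4515976-4516225, minus strand: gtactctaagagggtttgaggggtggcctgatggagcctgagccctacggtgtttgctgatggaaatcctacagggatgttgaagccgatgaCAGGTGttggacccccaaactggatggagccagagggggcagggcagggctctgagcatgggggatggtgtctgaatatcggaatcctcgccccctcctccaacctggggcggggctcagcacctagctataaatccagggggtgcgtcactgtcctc

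RefSeq windows matched 6 of the 8 genes, with 8 start sites. Tnni2 and Tnnt3 were not matched. The Tnnt2 window held 4 E-boxes, of which 2, at -223 and -157 from the start site, read CAGCTG, and a CATTCC at -27. The Tnnc1 window held 2 E-boxes and 1 CATTCC, on the other strand at -58. The Tnni1 window held 4 E-boxes, 1 of them CAGCTG, and the Tnnt1 window held 1, and neither held CATTCC. Nor did the windows of Tnnc2 and Tnni3 or the second windows of Tnni1 and Tnnt2, and the MEF2 consensus was in none of the 8. Of 32851 windows of this length, 66.2% held an E-box, 13% a CAGCTG, 1.26% 2 or more of them, 12.6% a CATTCC and 2.92% the MEF2 consensus, with both strands searched and CAGCTG counted among the E-boxes. These matches are a description of letters, not of bound sites.

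Induction switched on the whole skeletal set within 24 h. In DMSO cells Tnni1 went from 0 and 0.08 to 138.12 and 126.77 FPKM, and Tnnt3, fast troponin T, from 0.08 and 0.36 to 97.29 and 103.6. Tnnt1, slow troponin T, reached 75.67 and 79.53, Tnnc2, fast troponin C, 69.95 and 70.96, and Tnni2, fast troponin I, 36.29 and 39.6 FPKM. Tnnc1 rose to 173.54 and 175.38 and Tnnt2 to 292.19 and 311.52. For all 8 members the DM 24h libraries lay above the GM libraries, under DMSO and under PFI-3, as did those of 40.9% and 42.8% of all genes tested.

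All 8 genes were called higher at DM 24h than in GM, against 30.6% of all genes tested. For the genes near 0 in GM the size of the rise is poorly set: the Tnni2 rise was at least 98.2-fold (over a floor of 6 counts for the 2 GM libraries together), and Tnni1 had a ratio of 3509 with a counting interval of 629 to 138651. Tnnt2, already on, had the smallest fitted rise of the 8, 2.50 on the log2 scale (95% interval 2.26 to 2.74), and Tnnc1 rose 24.3-fold (20.2 to 29.5). From DM 24h to DM 48h, 7 of 8 rose again, against 24.2% of all genes called higher. These later rises ran from 2.11 (Tnnt2, SE 0.11) to 3.69 (Tnnc2, SE 0.10) on the log2 scale, all with adjusted p of 1.37e-08 or less (edgeR). Of all counts, the troponins held 0.0804% and 0.0829% in the DMSO libraries of DM 24h and 0.555% and 0.593% in those of DM 48h.

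**Figure D1:**
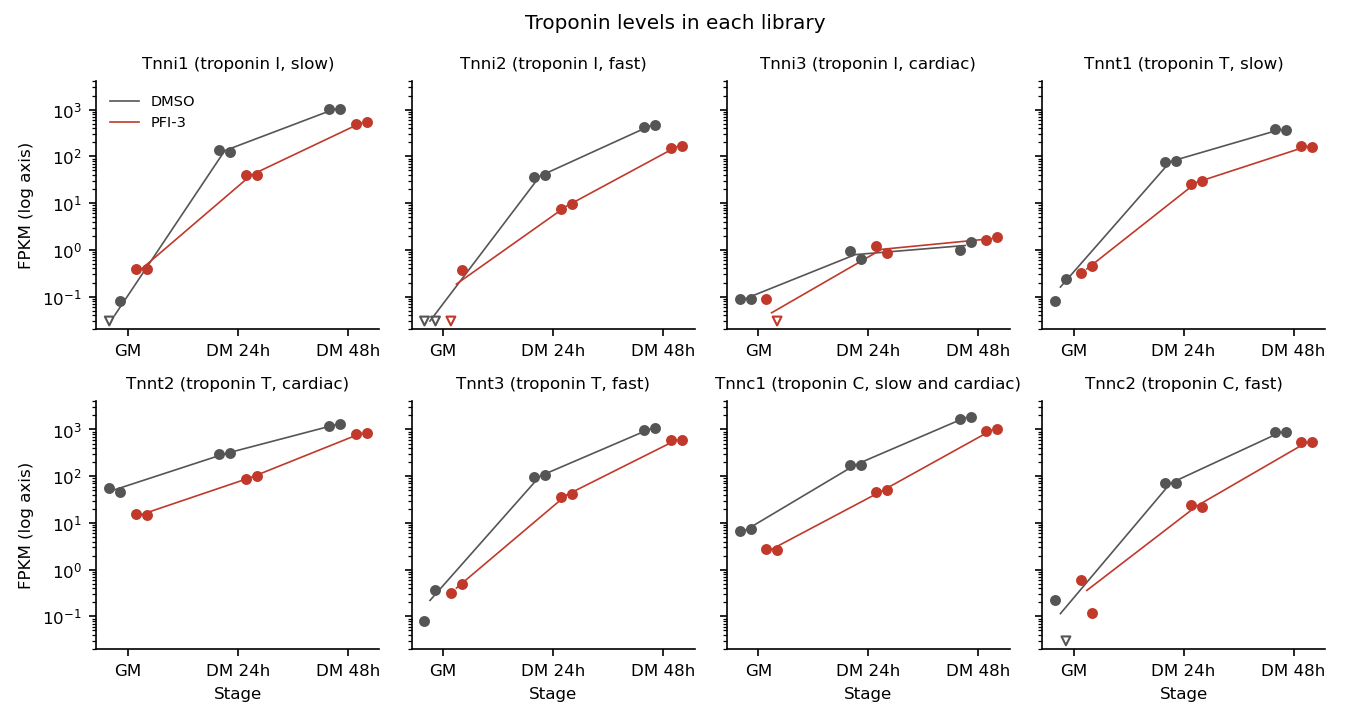
FPKM (log axis) of the 8 troponin genes in each library by stage, DMSO grey and PFI-3 red. Points are libraries A and B, lines join group means, and open triangles at the bottom mark libraries in which the gene was not listed. In the 7 panels other than Tnni3, both PFI-3 points sit below both DMSO points at DM 24h and DM 48h. Of all genes tested, 35.2% had that order at DM 24h and 35.9% at DM 48h.

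Cardiac troponin I stayed close to the detection limit throughout. With DMSO Tnni3 had 1 and 1 counts in GM, then 10 and 7 and, by DM 48h, 11 and 16, and with PFI-3 it had 1 and 0, 13 and 9, and 17 and 20. Its highest level, 1.87 FPKM, was far below that of every other member at DM 48h. It was called higher at DM 24h than in GM under both treatments, and no other comparison called it. Its PFI-3 effect was 0.33 at DM 24h (95% interval -0.69 to 1.34) and 0.39 at DM 48h (-0.46 to 1.24) on the log2 scale.

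At DM 24h PFI-3 left the 7 other troponins at 21.8% to 37.3% of their DMSO level. Tnni2 was at 7.51 and 9.64 FPKM with PFI-3 and changed most, by -2.20 on the log2 scale (SE 0.16, adjusted p = 6.4e-06, edgeR). Among the troponin I genes, Tnni1 was at 39.53 and 40.02 FPKM, a change of -1.78 (SE 0.08). Among the troponin T genes, which anchor the complex, Tnnt2 was at 87.99 and 100.81 FPKM, a change of -1.73 (SE 0.11). Tnnt1 was at 25.61 and 30.31 FPKM, a change of -1.52 (SE 0.09), and Tnnt3, at 36.39 and 42.45 FPKM, changed least, by -1.42 (SE 0.10). The calcium-binding subunits were lower as well: Tnnc1 was at 46.1 and 49.85 FPKM (-1.92, SE 0.08), and Tnnc2 at 23.79 and 22.39 FPKM (-1.66, SE 0.12). The 7 calls stand against 11.4% of all genes called lower, and the median over the 8 was -1.69 against -0.00098 over all genes tested. Adjusted p-values of the 7 were at most 6.4e-06 (edgeR), and in each of the 7 both PFI-3 libraries were below both DMSO libraries, as in 35.2% of all genes tested. With limma on log2(FPKM + 0.1) the Tnnc2 call was lost (-1.61, adjusted p = 0.0611). Each set still rose above its own GM level under PFI-3: all 8 were called higher, against 32.1% of all genes, with Tnni1 up 108-fold (58.3 to 225) and Tnnt2 6.26-fold (5.66 to 6.93) from the counts.

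At DM 48h the same 7 genes were lower with PFI-3, by less. Tnni2 again changed most, from 431.39 and 465.7 FPKM with DMSO to 154.08 and 164.41 with PFI-3 (-1.59, SE 0.11, 33.3% of DMSO, adjusted p = 2.35e-06, edgeR). Tnnt1 followed, from 379.5 and 373.66 to 166.73 and 160.32 FPKM (-1.30, SE 0.08), and then Tnni1, from 1007.13 and 1055.33 to 502.5 and 540.5 (-1.07, SE 0.07). Slow and fast genes were thus both among the 3 largest changes. Tnnc1 went from 1698.53 and 1877.45 to 925.6 and 1004.12 FPKM (-0.98, SE 0.07). Tnnt3 went from 996.44 and 1054.84 to 596.6 and 594.79 (-0.89, SE 0.09), and Tnnc2 from 863.42 and 878.55 to 531.64 and 531.2 (-0.81, SE 0.09). Tnnt2 changed least, from 1206.86 and 1289.69 to 808.49 and 846.74 FPKM (-0.68, SE 0.10, 62.2% of DMSO, adjusted p = 0.000385, edgeR). Of all genes tested 14% were called lower, and the member median was -0.94 against 0.0014 for all genes. With limma on log2(FPKM + 0.1), 4 of the 7 stayed called at DM 48h, and Tnni2, Tnnt3 and Tnnc2 were not.

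**Figure D2:**
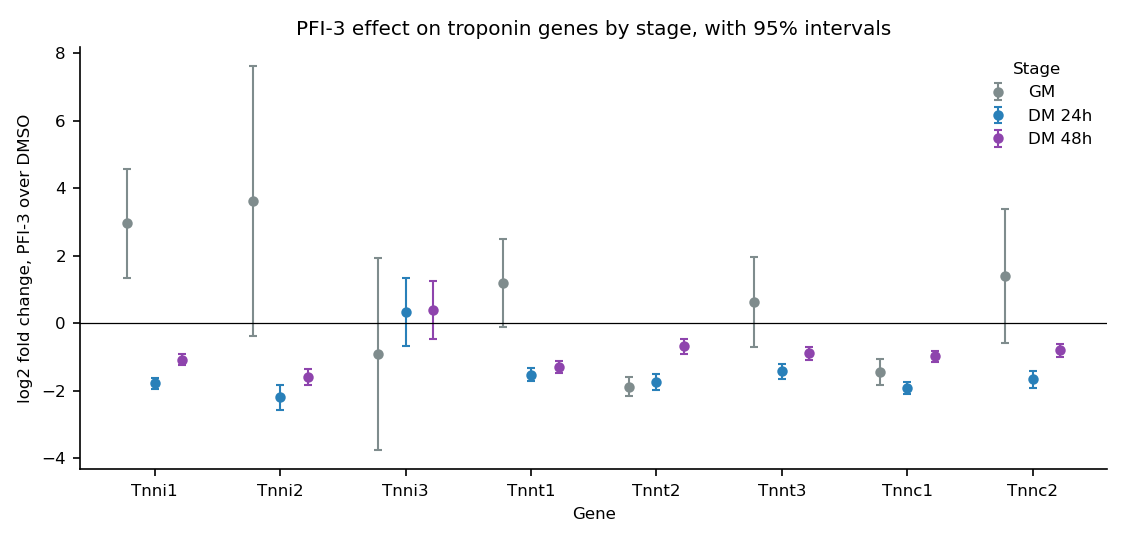
Log2 fold change of PFI-3 over DMSO for each gene in GM (grey), DM 24h (blue) and DM 48h (purple). Points are edgeR estimates and bars are 95% intervals. Tnnt2 and Tnnc1 lie below 0 at all 3 stages, 7 genes lie below 0 at DM 24h and DM 48h, and the GM intervals of the near-absent genes are wide.

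The drop shrank between 24 h and 48 h in 5 genes. The PFI-3 effect at DM 48h minus that at DM 24h was 1.04 for Tnnt2 (SE 0.15, adjusted p = 0.000664), 0.93 for Tnnc1 (SE 0.11, adjusted p = 0.000158), 0.86 for Tnnc2 (SE 0.15, adjusted p = 0.00269), 0.71 for Tnni1 (SE 0.11, adjusted p = 0.00111) and 0.53 for Tnnt3 (SE 0.13, adjusted p = 0.0203, edgeR for all). Over all genes, 7.12% were called higher in this difference. For Tnnt1 the difference was 0.23 (95% interval -0.04 to 0.49) and for Tnni2 0.61 (0.17 to 1.05, adjusted p = 0.0744), neither called. Under the alternatives, Tnni2 gained the call in 8 of 23, among them the DESeq2 Wald test (adjusted p = 0.0327), and Tnnt1 in 2 of 23, both fits of the DM libraries alone (adjusted p = 0.0414 and 0.042). The Tnnt3 call was lost when any 1 of 7 DM libraries was left out, with differences of 0.43 to 0.58. Under PFI-3 the rise from DM 24h to DM 48h was called for 7 of 8 genes, against 13.1% of all genes, and ran from 2.58 (Tnnt1) to 4.55 (Tnnc2). The comparisons share libraries: each DM 24h group enters both its treatment and its stage comparisons.

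Between GM and DM 24h the PFI-3 effect could be compared well only for the 2 genes detected in GM. The difference was 0.14 for Tnnt2 (95% interval -0.21 to 0.50) and -0.48 for Tnnc1 (-0.94 to -0.03, adjusted p = 0.332, edgeR), neither called. Tnni1 (-4.74, adjusted p = 0.00485) and Tnnt1 (-2.72, adjusted p = 0.0342, edgeR) were called, against 1.59% of all genes called lower, on GM counts of at most 6 per library. The Tnni1 call held under all 23 alternatives, and the Tnnt1 call was lost under 12 of them, with adjusted p of up to 0.152.

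The order of the forms differed between stages and treatments. With DMSO at DM 24h Tnnt2 was the most abundant transcript by FPKM, followed by Tnnc1, Tnni1, Tnnt3, Tnnt1, Tnnc2 and Tnni2, with no overlap between neighbours. At DM 48h Tnnc1 led, ahead of Tnnt2, and Tnni1 and Tnnt3 overlapped behind them, followed by Tnnc2, Tnni2 and Tnnt1. With PFI-3 at DM 48h Tnnt3 stood ahead of Tnnc2 and Tnni1, which overlapped, and Tnnt1 and Tnni2 overlapped at the bottom above Tnni3.

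Within each subunit the forms moved unequally. The share of troponin I FPKM held by the fast gene Tnni2 was 22.2% in the DMSO and 17.3% in the PFI-3 libraries of DM 24h, and 30.3% against 23.3% at DM 48h. The log2 ratio of Tnni2 to Tnni1 at DM 48h was -1.22 and -1.18 with DMSO and -1.71 and -1.72 with PFI-3, so the fast form was lower relative to the slow one. Troponin C and T went the other way: the log2 ratio of fast Tnnc2 to Tnnc1 at DM 48h was -0.98 and -1.10 with DMSO and -0.80 and -0.92 with PFI-3, and that of fast Tnnt3 to slow Tnnt1 averaged 1.44 against 1.87. No single direction between fast and slow forms thus held over the 3 subunits.

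Cardiac troponin T changed its place in both directions. With DMSO its share of troponin T FPKM was 62.9% at DM 24h and 47.1% by DM 48h, and under PFI-3 it was 58.4% and then 52.1%. The log2 ratio of Tnnt2 to Tnnt3 was lower with PFI-3 at DM 24h (1.27 and 1.25 against 1.59 and 1.59) and higher at DM 48h (0.44 and 0.51 against 0.28 and 0.29). The 10 ratios compared, 5 at each DM stage, did not overlap between treatments. Nor did the levels of 70.5% of all genes tested at DM 24h and 71.3% at DM 48h, counting both directions. The troponin T ratios are not independent, as each follows from the others. The exact two-sided permutation p of each ratio was 0.333, the smallest that 2 libraries against 2 can give.

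**Figure D3:**
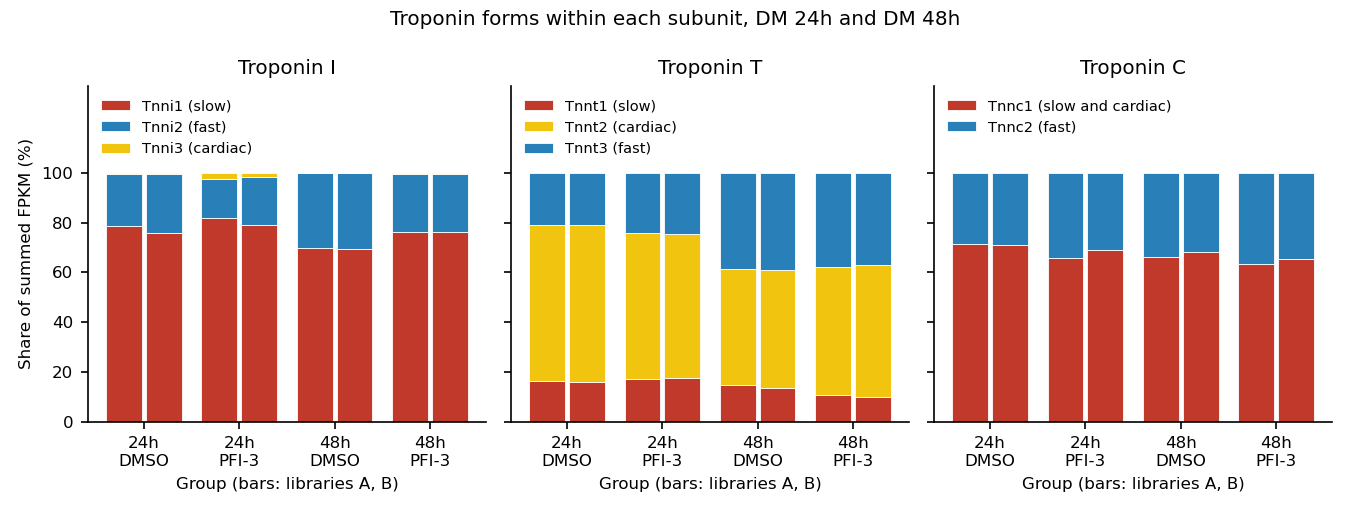
Share of summed FPKM (%) held by each form of troponin I, T and C in each library of the 4 DM groups (bars in pairs are libraries A and B). Tnni2 takes a smaller part of troponin I with PFI-3, Tnnt1 a smaller part of troponin T at DM 48h, and Tnnt2 a smaller part at DM 48h than at DM 24h.

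The balance between subunits also differed between treatments. At DM 48h summed troponin C FPKM was 1.78 and 1.81 times summed troponin I with DMSO, and 2.21 and 2.17 times with PFI-3. Summed troponin T was 1.79 and 1.78 times troponin I with DMSO and 2.39 and 2.27 times with PFI-3. Both ratios were higher with PFI-3 in both libraries, while troponin T over troponin C lay between 0.986 and 1.08 in all 4. At DM 24h the ratio of C to I was 1.39 and 1.48 with DMSO and 1.45 and 1.43 with PFI-3, which overlap. Troponin T was higher there with PFI-3 relative to both other subunits, at 2.65 and 2.96 against 3.11 and 3.44 times troponin I and at 1.91 and 2.01 against 2.15 and 2.403 times troponin C.

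The deposited tables give each gene a length that varies between libraries when several transcripts of a gene are present, and for fast troponin T it moved with stage and treatment. Tnnt3 is known for extensive alternative splicing, including an exon used in fetal muscle. At DM 24h its length was 1047.63 and 1049.47 bases with DMSO and 1036.99 and 1032.24 under PFI-3, and 1070.34 and 1072.07 against 1059.74 and 1061.21 at DM 48h. It was lower with PFI-3 at both stages without overlap. Tnnt1 lengths overlapped at DM 24h and were 1017.34 and 1018.01 bases against 1014.14 and 1014.53 at DM 48h, and in GM, on at most 6 counts per library, they were 994 in both DMSO libraries and 1030 in both PFI-3 libraries. Tnnt2 lengths overlapped at DM 24h and were 1196.23 and 1195.92 against 1194.26 and 1195.49 at DM 48h. No test was made of these lengths, and which transcripts differ is not resolved in gene-level tables.

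**Figure D4:**
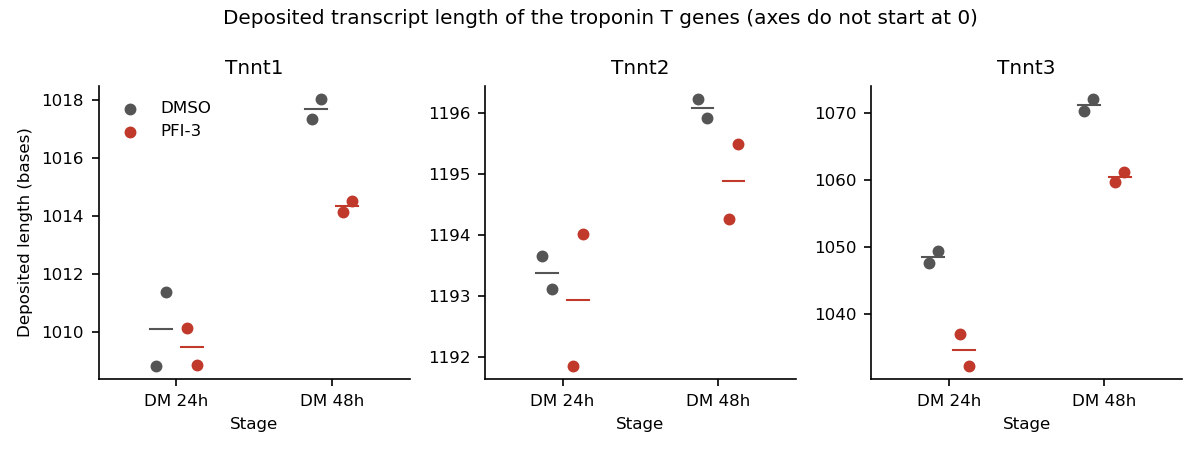
Deposited transcript length (bases, axes not starting at 0) of Tnnt1, Tnnt2 and Tnnt3 at DM 24h and DM 48h. Points are libraries A and B, short bars are means, DMSO is grey and PFI-3 red. The Tnnt3 PFI-3 points lie below the DMSO points at both stages.

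Other genes of the contractile apparatus were lower alongside the troponins. Of 15 thin filament genes, which build, cap or stabilise actin filaments, 0 were called higher at either DM stage, 9 were lower at DM 24h and 11 by DM 48h, with medians of -1.05 and -0.60 on the log2 scale. Over all genes tested, 11.4% were called lower at DM 24h and 14% at DM 48h. Actc1, cardiac alpha actin, changed by -1.60 and -0.79, Lmod2, a leiomodin that nucleates actin, by -1.59 and -1.21, and Lmod3 by -1.35 and -0.71. Of 9 slow-fibre genes tested, 6 were lower at DM 24h and 8 at DM 48h (medians -1.78 and -0.97), led by Mybpc1 (-2.26 and -1.83), Csrp3 (-2.18 and -1.57) and Myl2, a slow and cardiac myosin light chain called at DM 48h (-3.17). Of 10 fast-fibre genes, 5 and 7 were lower (medians -1.43 and -0.75), led by Myh2 (-2.61 and -0.92), Myh1 (-1.66 and -0.56) and the calcium store protein Casq1, called at DM 48h (-2.15). Low levels lie under several of the largest values. Myl2 at DM 48h was at a mean of 0.20 CPM with PFI-3 against 1.83, and Myh2 at DM 24h at 0.15 against 0.98. At DM 24h Mybpc1 was at 0.95 against 4.58 CPM and Csrp3 at 0.84 against 3.84. The embryonic and perinatal myosins Myh3 (-1.64 and -0.58) and Myh8 (-1.76 and -1.59) were lower at both stages. Every call in these 4 lists at the DM stages was in the lower direction, for slow and fast genes alike. In GM, 3 of the 15 thin filament genes were lower, against 6.15% of all genes.

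Of 16 regulators of muscle genes, 9 were lower at DM 24h and 9 lower and 1, Mef2a (0.19), higher at DM 48h, against 11.4% and 14% of all genes called lower. In GM 1 of the 16, Tead1, was lower, a share near the 6.15% of all genes. Mef2c, a MADS-box activator of sarcomere genes, changed by -2.09 and -2.45. Its mean was only 0.30 CPM with PFI-3 against 1.34 with DMSO at DM 24h, and 13.3 against 72.6 at DM 48h. Sox6, a repressor of slow-fibre genes, was lower at DM 24h (-1.59), and Myf6 was lower at DM 48h (-1.52). Both were at low levels, Sox6 at a mean of 0.30 against 0.94 CPM and Myf6 at 1.02 against 2.94.

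**Figure D5:**
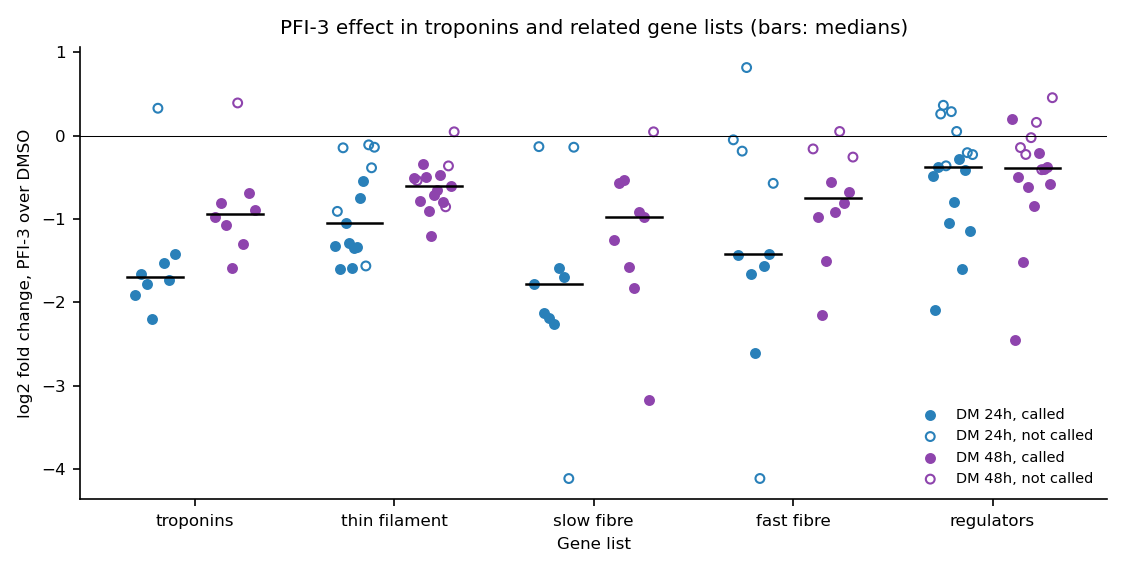
Log2 fold change of PFI-3 over DMSO at DM 24h (blue) and DM 48h (purple) for the troponins and 4 related gene lists. Filled points were called by edgeR, open points were not, and black bars are medians. The troponin medians are -1.69 and -0.94, and most filled points lie below 0.

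The pattern of each gene over the 6 groups was set beside 10424 genes, the other troponins apart, by the root mean square difference of centred log2(CPM + 0.5) group means. The nearest to Tnnt3 was Ckm, muscle creatine kinase (0.0546), then Mylpf (0.195) and Atp2a1 (0.230). Tnni1 was nearest to Atp2a1, the fast calcium pump of the sarcoplasmic reticulum (0.131), Mylpf (0.292) and Mybph (0.292). Tnnc2 was nearest to Acta1, skeletal actin (0.190), Casq2 (0.208) and Myh1 (0.224). Tnnt1 was nearest to Hfe2 (0.214), Mymx, the fusion peptide myomixer (0.249), and Cdkn1c (0.401). Tnni2 was nearest to Myom2 (0.268), Cacna1s (0.348) and Trim72 (0.353), and Tnnc1 to Apobec2 (0.350), Myom2 (0.359) and Lmod3 (0.391). Tnnt2 had the most distant neighbours, Tmem38a (0.579), Ctxn3 (0.588) and Ano5 (0.609), and its nearest troponin, Tnnc1, was at 1.16. Among the troponins themselves the nearest pair was Tnni1 and Tnnt3 (0.258), closer than the second gene named for Tnni1.

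Linked genes were set side by side at DM 48h. Tnni2 had a 95% interval of -1.82 to -1.35 and its linked gene Tnnt3 of -1.08 to -0.70. Tnni1 had -1.23 to -0.92 and its linked gene Tnnt2 -0.91 to -0.46. Tnnt1 was lower while its neighbour Tnni3 was not called. The difference between linked genes was not tested.

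Markers of muscle and other cell types were read beside these values. Of 10 cardiac markers, 8 were listed, and Myl7, Mybpc3, Ryr2, Nppa and Nppb were each at most 0.862 CPM in every library. Nkx2-5 was at 0.409 to 1.55 CPM, while Gata4 was at 20.9 to 32 CPM throughout. The cardiac list summed to 23.4 to 48.3 CPM over all groups. Myh6, the 1 cardiac marker called between treatments, was lower with PFI-3 at DM 24h (-3.16) and DM 48h (-0.91). At DM 24h Myh6 was at a mean of only 0.11 CPM with PFI-3 against 1.09 with DMSO. It was at 0 in every GM library, and at DM 48h at a mean of 8.72 CPM with PFI-3 against 16.4 with DMSO. The 5 myotube markers, Myog, Myh3, Ckm, Acta1 and Mymk, were all lower with PFI-3 at both DM stages. They summed to 2268 and 2271 CPM with DMSO and 939 to 942 under PFI-3 at DM 24h, and to 15274 to 15383 against 10202 to 10433 at DM 48h. In bulk RNA fewer myotubes and less troponin RNA per myotube cannot be told apart. Of the 4 myoblast markers, 1 was lower in GM (Des), 1 after 24 h (Pax7) and 2 after 48 h of induction (Pax7 and Msc). Over all genes tested, 6.15%, 11.4% and 14% were called lower. Myf5 was not called. With DMSO, Des rose from a mean of 423 CPM in GM to 2097 at DM 48h, and Pax7 from 43.2 to 218. Msc at DM 48h was at a mean of only 0.35 CPM with PFI-3 against 2.29. Fibroblast markers summed to 420 to 424 CPM with DMSO and 100.8 to 102.1 under PFI-3 at DM 24h, with Col1a1 lower (-2.67) and Pdgfra higher (1.14), and to 603 to 620 against 168 to 176 at DM 48h. Adipocyte and leukocyte markers summed to at most 23.4 and 9.05 CPM in any library, and of them Pparg was called higher at DM 48h (0.77). The part of these other lists in the troponin result was not tested.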

How the data were processed

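RNA from 12 C2C12 libraries was prepared, sequenced and processed by a sequencing provider, per the labels. Groups and letters come from sample titles. The submitters' processing notes name HISAT, StringTie, Cufflinks, Bowtie, RSEM, DESeq2 and mm10, without roles or versions. Each deposited table gives an expected count and an FPKM per gene, per the file headers, with replicates not pooled. The deposited length is in bases. Between 93.3% and 93.7% of deposited expected counts were whole (tolerance 1e-06), and every listed troponin count was. A gene missing from a table was set to 0.

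Expected counts were rounded and tested with edgeR 4.0.16 (R 4.3.3), quasi-likelihood, with TMM factors of 0.938 to 1.04, filterByExpr (12545 genes kept) and 1 model of 6 groups over 12 libraries. P-values were adjusted by Benjamini-Hochberg over all genes tested and called under 0.05. Standard errors and 95% intervals come from the same test. CPM values divide each count by its TMM-scaled library size. Counting intervals and floors (3 counts per library) cover counting error only. The tests were also run on simulated counts, but no outcome of that check is given here. No call in GM or in DM rests on it, and whether it covers the wider spread of the GM duplicates was not tested.

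Named genes were the 8 troponins, the 3 largest called changes at DM 24h or DM 48h of each list, and the 3 genes nearest in pattern to each troponin with at least 5 CPM at DM 48h with DMSO. The listed cardiac, smooth-muscle and myotube markers are also named, as markers of their cell types. Mef2a, Tead1, Pdgfra, Dcn, Thy1, Des, Myf5, Pparg and Gata4, and Acta2 and Cnn1 as called genes, were singled out after their values were seen. Members and lists were chosen with earlier results of these data known. Alternatives were the DESeq2 1.42.0 Wald test, DESeq2 size factors, library totals, other filters, limma 3.58.1 on log2(FPKM + 1) or log2(FPKM + 0.1), only the libraries compared, the letter as a block, and leaving out each library. Promoter windows are from RefSeq. Python 3.11.15, pandas 2.3.3, scipy 1.17.1 and matplotlib 3.10.9 were used.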

Additional observations from a re-analysis of the deposited data

Results flagged for a closer look

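A test of the difference between stages in the edgeR model called 7 changes of the PFI-3 effect (log2, adjusted p under 0.05 over all genes tested). From DM 24h to DM 48h the effect became smaller by 0.93 in Tnnc1, 0.86 in Tnnc2, 0.71 in Tnni1, 1.04 in Tnnt2 and 0.53 in Tnnt3. From GM to DM 24h it changed by -4.74 in Tnni1 and by -2.72 in Tnnt1, both on GM counts of at most 6 per library. The Tnnt1 call was lost under 12 of 23 alternatives. Groups of 2 libraries were too small for a check on single libraries that stand apart.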

How the results depend on the processing

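Each of the 72 fitted values (8 genes, 9 comparisons) was recomputed under up to 23 alternatives: 1568 results kept direction and side of the threshold, 43 lost the call, 29 gained one and 7 reversed. The counts of 7 lower at DM 24h and of 8, 7, 8 and 7 higher in the stage comparisons stayed within 1.5 times under every alternative run. The GM count of 3 became 1 when only the libraries compared were fitted, and 2 to 3 when a library was left out. The DM 48h count of 7 became 4 with limma on log2(FPKM + 0.1), and was 7 without any 1 library. The count of 2 for the difference between DM 24h and GM became 6 with limma on log2(FPKM + 1), with or without the filter, 5 with log2(FPKM + 0.1), 1 with only the libraries compared, 1 when the replicate block was added to that fit (chosen after seeing the data), and 1 to 3 without a library. The count of 5 for the difference between DM 48h and DM 24h became 2 with log2(FPKM + 0.1), and 4 to 6 without a library. The cause was not tested.

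The 7 reversals, none of a called value, came from leaving out 1 library. In GM, Tnnt3 became -0.034 without DMSO A (highest 2.07, without DMSO B) and Tnnc2 -0.083 without PFI-3 A (highest 4.55, without DMSO A). The difference between DM 24h and GM for Tnnt2 became -0.056 without GM DMSO A (highest 0.33, without GM DMSO B). The difference between DM 48h and DM 24h for Tnni3 became -0.23 without DM 24h DMSO A, -0.19 without DM 48h DMSO A, -0.17 without DM 24h PFI-3 B and -0.055 without DM 48h PFI-3 B (highest 0.35, without DM 48h DMSO B). Where an arm kept 1 library, it was assumed to vary like the other groups.

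The labels do not say what the letters A and B mark. Same-letter deviations correlated at 0.447 in GM, and at 0.013 and 0.027 in DM 24h and DM 48h. The letters were not taken as pairs in the main model, so the GM comparison there leaves out a shared difference between A and B. The replicate block changed 1 of the 72 calls: Tnni2 gained one for the difference between DM 48h and DM 24h (0.61, adjusted p = 0.0483, edgeR). Scaling by library totals in place of TMM moved the share of higher calls over all genes from 47% to 76% in GM, 51.7% to 61.8% at DM 24h and 48.9% to 66.6% at DM 48h, and turned no troponin's direction. In GM, depth limits the 6 transcripts at or under 6 counts per library.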
